A study of Gallus gallus with 6 samples.

Results

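TNNT2 (ENSGALG00000000302), TNNI1 (ENSGALG00000000313) and ACTC1 (ENSGALG00000009844) are 3 striated muscle genes among the 15955 genes counted in chicken (Gallus gallus) basilar papillas, which hold the hearing cells of the bird inner ear. They were chosen by name, with their lower values in the treated group already known from the authors' deposited table from edgeR, so the comparison of groups describes them and does not test them. All 3 had enough counts to enter the fit, together with 12130 other genes.

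Right otocysts, the embryonic ear vesicles, had been infected on embryonic day 3 and the papillas were taken on embryonic day 6. The controls received RCAS(A), a replication-competent avian retrovirus with no added gene, and the treated group received RCAS(A)-Wnt9a, in which that virus carries the Wnt9a gene. Both groups therefore carried the virus. Each group held 3 libraries, each made from a pool of RNA from 24 papillas, and the pools are numbered 2, 3 and 4 for RCAS(A), and 1, 2 and 3 for RCAS(A)-Wnt9a.

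Striated muscle contracts through sarcomeres, in which myosin thick filaments pull on thin filaments of actin. On the thin filament sit tropomyosin and the troponin complex, which has a calcium-binding subunit (troponin C), an inhibitory subunit (troponin I) and a tropomyosin-binding subunit (troponin T). TNNT2 encodes the cardiac form of troponin T, TNNI1 the slow skeletal form of troponin I and ACTC1 the cardiac form of alpha actin. In vertebrate embryos the cardiac forms of troponin T and alpha actin are also made by developing skeletal muscle. The basilar papilla is an epithelium with hair cells and supporting cells and is not itself a muscle.

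The libraries held 19200235 to 23017150 counts. WNT9A, the gene carried by the virus, was at 6.87 to 10.3 CPM (TMM-scaled counts over library size) in the RCAS(A) pools and at 427 to 1340 CPM in the RCAS(A)-Wnt9a pools, so that this gene did not go against a label. These counts do not separate viral from endogenous transcripts. Markers of the papilla were present in every library but not at the same level in both groups. OTOA, which encodes otoancorin, was at 358 to 370 CPM in the RCAS(A) pools and 216 to 307 CPM in the RCAS(A)-Wnt9a pools. For SOX2, a prosensory transcription factor gene, it was 67.9 to 72.3 and 42.6 to 56.3 CPM. TECTB, another papilla marker, was at 40.1 to 57.3 and 0.720 to 4.23 CPM. Of the 7 such markers tested, PAX2 alone was higher in the treated pools. All have symbols only through the authors' tables of changed genes. In bulk RNA, fewer cells of a type and less RNA per cell cannot be told apart.

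The inhibitory troponin subunit gene TNNI1 had the most even levels of the 3 genes. It was listed on chromosome 26 at 774173 to 777490 in galGal4 coordinates. Its level was 1.73, 3.20 and 1.92 CPM in RCAS(A) replicates 2, 3 and 4. In RCAS(A)-Wnt9a replicates 1, 2 and 3 it was 0.945, 1.16 and 1.06 CPM. The groups did not overlap, RCAS(A) replicate 3 stood above the other 2 controls, and the treated pools were close together. These levels rest on 40, 70 and 39 counts in the controls and on 21, 26 and 20 in the treated pools. Group means were 2.29 ± 0.80 CPM and 1.05 ± 0.11 CPM (SD, n = 3 per group). The fitted log2 fold change was -1.11 (SE 0.29), or 2.16-fold lower with RCAS(A)-Wnt9a.

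TNNT2, the tropomyosin-binding troponin subunit gene, was listed on chromosome 26 at 789216 to 797274. Its level was 1.73, 3.25 and 1.43 CPM in RCAS(A) replicates 2, 3 and 4, and 0.495, 0.356 and 1.38 CPM in RCAS(A)-Wnt9a replicates 1, 2 and 3. RCAS(A)-Wnt9a replicate 3 lay just under the lowest control, while the other 2 treated pools were far below it. The counts behind these levels were 40, 71 and 29 in the controls and 11, 8 and 26 in the treated pools. For RCAS(A)-Wnt9a replicate 3 the exact Poisson 95% interval, which covers counting error only, ran from 0.901 to 2.02 CPM and so held the values of RCAS(A) replicates 2 and 4. Group means were 2.14 ± 0.98 and 0.744 ± 0.555 CPM (SD, n = 3 per group), and the log2 fold change was -1.57 (SE 0.49), or 2.96-fold lower.

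ACTC1, the thin filament actin gene, was listed on chromosome 5 at 31546120 to 31552902. It was the most abundant of the 3 in counts, with 105, 326 and 120 in RCAS(A) replicates 2, 3 and 4 and 64, 33 and 59 in RCAS(A)-Wnt9a replicates 1, 2 and 3. Its level was 4.53, 14.9 and 5.92 CPM in the controls and 2.88, 1.47 and 3.13 CPM in the treated pools. The groups did not overlap, and the control in replicate 3 was 2.86 times the mean of the other 2. Group means were 8.46 ± 5.64 and 2.49 ± 0.90 CPM (SD, n = 3 per group), with a log2 fold change of -1.77 (SE 0.57), or 3.41-fold lower. Alpha actins are near-identical in protein sequence. Whether reads of other muscle actins were counted for ACTC1 was not examined, so its level carries that uncertainty.

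**Figure D1:**
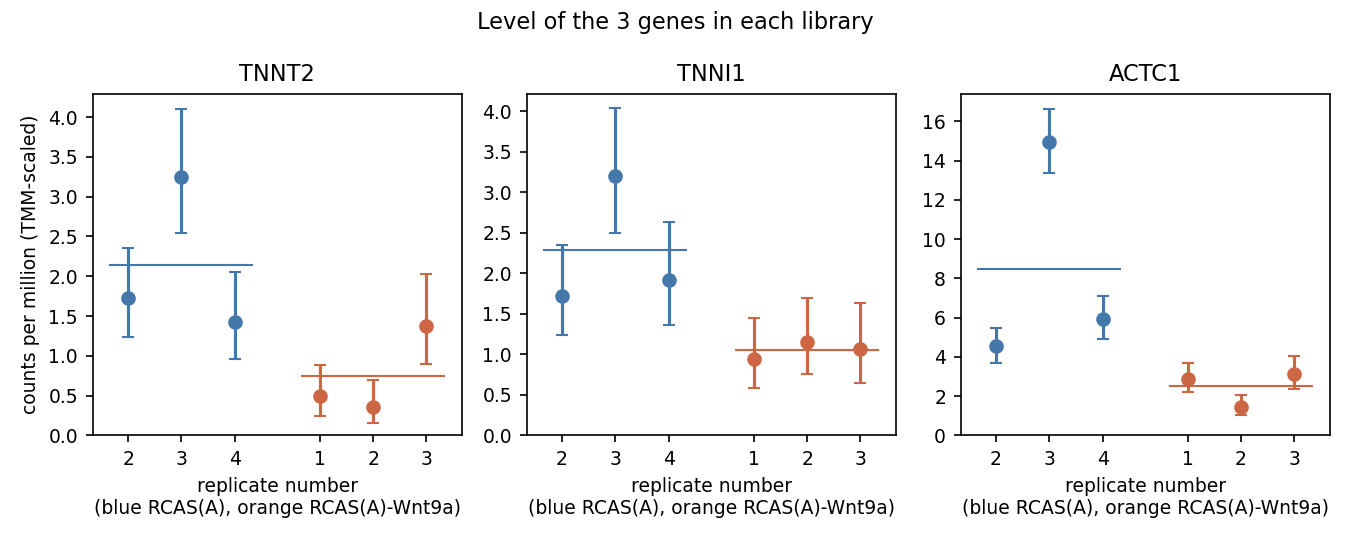
Level of TNNT2, TNNI1 and ACTC1 in each library, in TMM-scaled CPM on axes that start at 0. Points are libraries, bars are exact Poisson 95% intervals of the count and lines are group means; RCAS(A) replicate 3 is the highest library for each gene, and RCAS(A)-Wnt9a replicate 3 stands above the other 2 treated pools for TNNT2.

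In the authors' deposited table of pooled FPKM, which sets counts per transcript length, the 3 genes stood at nearly the same level in the RCAS(A) group, at 3.04 for TNNT2, 3.49 for TNNI1 and 3.06 for ACTC1. In the RCAS(A)-Wnt9a group the authors' values were 1.27, 1.53 and 0.859 FPKM. The authors' confidence bounds overlapped between the groups for TNNT2, at 1.65 to 4.44 against 0.410 to 2.13 FPKM. They also overlapped for TNNI1, at 2.05 to 4.94 against 0.692 to 2.37 FPKM. For ACTC1 they did not, at 2.20 to 3.93 against 0.513 to 1.2 FPKM. These bounds belong to pooled group values, and nothing says whether they cover the spread between pools. The 3 genes are therefore not ranked by them. By FPKM in the RCAS(A) group, 38.4% of the 15793 listed genes were lower than TNNT2, 39.5% lower than TNNI1 and 38.4% lower than ACTC1, many of them near 0. Among the 12133 genes tested, ranked by average log2 CPM, 7.81% were lower than TNNT2, 9.04% than TNNI1 and 18.6% than ACTC1.

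Within a library the ratio of 2 genes does not depend on the scaling. TNNT2 had 1.0, 1.01 and 0.744 times the counts of TNNI1 in RCAS(A) replicates 2, 3 and 4. In RCAS(A)-Wnt9a replicates 1, 2 and 3 this ratio was 0.524, 0.308 and 1.30. The 2 troponin genes thus kept a similar ratio in the controls and a scattered one in the treated pools, where TNNT2 had as few as 8 counts. ACTC1 had 2.62, 4.66 and 3.08 times the counts of TNNI1 in the controls and 3.05, 1.27 and 2.95 times in the treated pools, ranges that overlap.

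By edgeR's quasi-likelihood test over all 12133 genes, 0 of the 3 genes passed a Benjamini-Hochberg adjusted p under 0.05, against 2.27% of all genes tested. The adjusted p was 0.0752 for TNNI1, 0.176 for TNNT2 and 0.273 for ACTC1 (edgeR quasi-likelihood test). Without adjustment all 3 had p under 0.05 in that test (0.00208, 0.00962 and 0.0223), as did 5.75% of all genes in the downward direction. In all 3 each treated pool lay under each control, as in 9.16% of all genes tested. Since these genes were chosen from this contrast, nothing is read from these counts.

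Other tools placed the 3 genes on different sides of the threshold with nearly the same fold changes. DESeq2 and limma-voom also called 0 of the 3, with adjusted p of 0.0633 to 0.101 in DESeq2, where 1.39% of all genes were called as lower, and 0.104 to 0.118 in limma-voom, where 0.874% were. The authors' deposited table from edgeR lists all 3, with adjusted p of 0.0390 for TNNT2, 0.0159 for TNNI1 and 0.00149 for ACTC1. The authors' deposited table from DESeq2 lists none of them. edgeR's exact test, added here after the data were seen, gave adjusted p of 0.0338 for TNNT2, 0.0137 for TNNI1 and 0.00150 for ACTC1, and it called 1.70% of all genes as lower. The log2 fold changes in the authors' deposited table from edgeR were -1.54 for TNNT2, -1.11 for TNNI1 and -1.76 for ACTC1.

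The spread between pools of a group differed among the 3 genes. The CV across the control pools was 45.7% for TNNT2, 35.1% for TNNI1 and 66.7% for ACTC1. Across the treated pools it was 74.7%, 10.1% and 35.9%. Counting alone would give a library of ACTC1 a CV of 5.54% to 17.4%, and one of TNNT2 a CV of 11.9% to 35.4%. For TNNI1 it would be 12.0% to 22.4%, and in its treated pools 19.6% to 22.4%, above the 10.1% seen there. The closeness of the treated pools of TNNI1 is therefore not read as a trait of that gene. The tagwise biological coefficient of variation (BCV), edgeR's estimate of the spread within groups beyond counting, was 44.0% for ACTC1, 35.4% for TNNT2 and 19.1% for TNNI1. The trend over genes of the same average level was 14.2%, 17.6% and 17.2%. The ratio of BCV to trend was larger than that of ACTC1 in 0.470% of all genes tested, than that of TNNT2 in 1.60% and than that of TNNI1 in 16.1%.

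**Figure D2:**
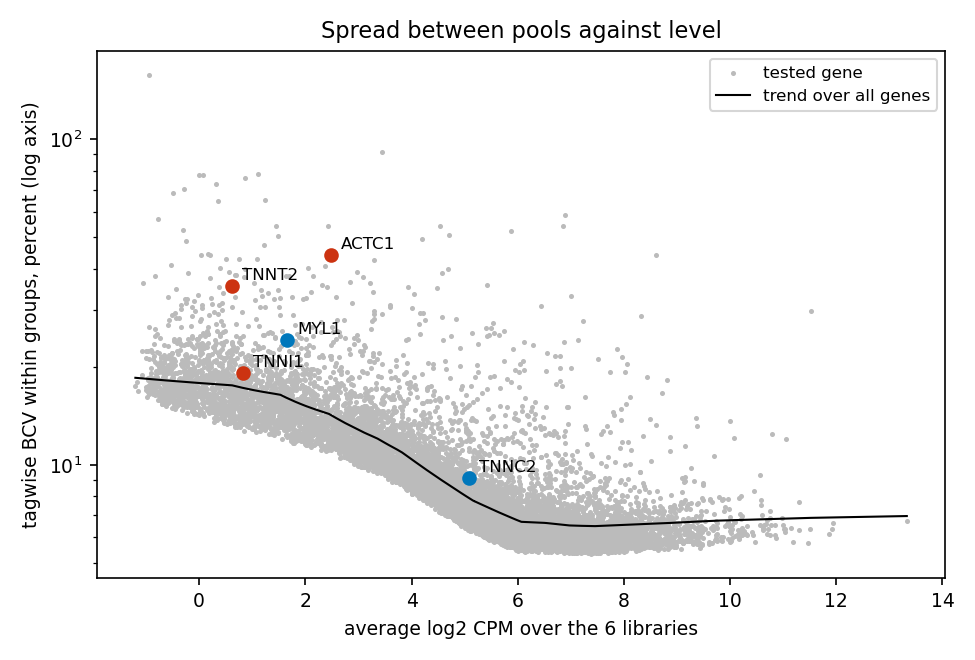
Tagwise BCV within groups in percent, on a log axis, against average log2 CPM for all 12133 genes tested (grey), with the trend over genes as a line. ACTC1 and TNNT2 stand well above the trend, at 44.0% and 35.4%, while TNNI1 is near it at 19.1%; the muscle genes MYL1 and TNNC2 are shown in blue.

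RCAS(A) replicate 3 was the highest of the 6 libraries for each of the 3 genes. Its level over the mean of RCAS(A) replicates 2 and 4 was 2.06 for TNNT2, 1.76 for TNNI1 and 2.86 for ACTC1. Of all 12133 genes tested, 10 had a larger ratio than ACTC1, 45 a larger one than TNNT2 and 90 a larger one than TNNI1. A high control itself favoured the choice of these 3 genes, and the ranks are not matched for level. Without this library the log2 fold changes were -1.13 (SE 0.47) for TNNT2, -0.79 (SE 0.28) for TNNI1 and -1.07 (SE 0.29) for ACTC1, so that all 3 had the same sign and a smaller size. The edgeR adjusted p without it was 0.397, 0.301 and 0.127. Leaving out RCAS(A)-Wnt9a replicate 3 moved TNNT2 the other way, to -2.32 on the log2 scale (SE 0.45, edgeR adjusted p = 0.0197), where 0.883% of all genes were called as lower.

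**Figure D3:**
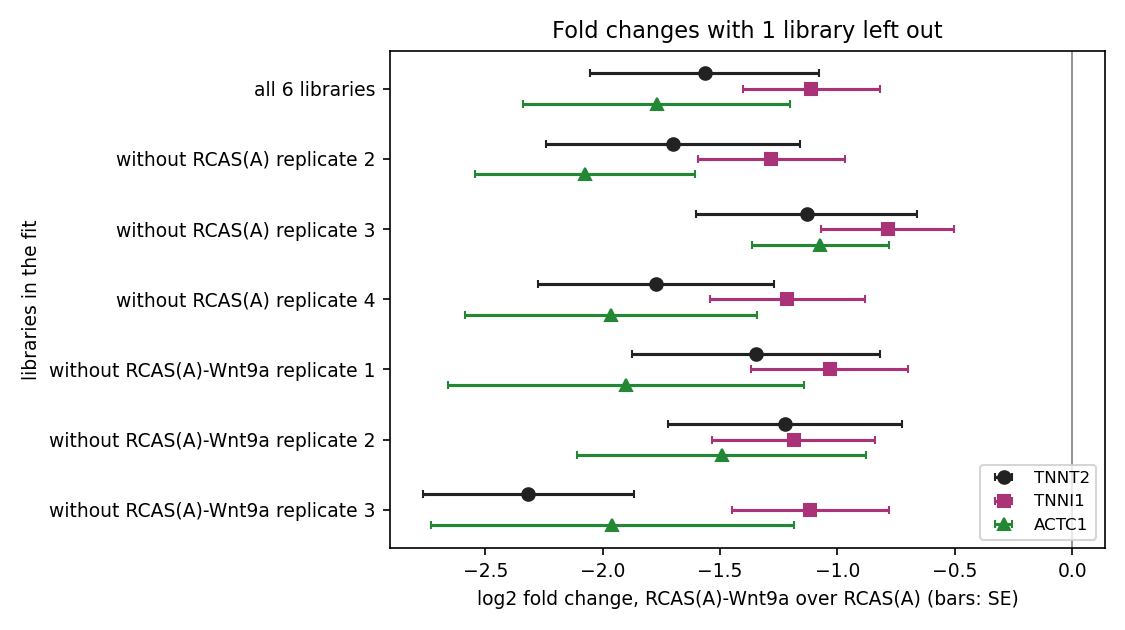
Fitted log2 fold changes (RCAS(A)-Wnt9a over RCAS(A)) of the 3 genes with all 6 libraries and with each library left out in turn; bars are SE. All values are negative, the ones nearest to 0 come without RCAS(A) replicate 3, and TNNT2 is lowest, at -2.32, without RCAS(A)-Wnt9a replicate 3.

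Other muscle genes were read through 7 lists of thin filament, thick filament, Z-disc, calcium handling, skeletal and cardiac regulator and smooth muscle genes. Only the authors' tables of changed genes pair an identifier with a symbol, so 15 of the 136 list genes have a value here, 14 of them tested, and their directions are not independent evidence. Of these 14, 4 fell (TNNC2, SMYD1, ALPK2 and CASQ2), 3 rose (HCN4, MYLK and PDLIM5) and 7 missed the threshold, among them TNNT2, TNNI1 and ACTC1. Over all genes tested, 0.841% fell and 1.43% rose. The median log2 fold change of the 14 was -1.14, against -0.004 over all genes tested. The authors had listed the 14 as changed in this contrast, so neither their counts nor their median can be read against all genes. Without RCAS(A) replicate 3, where 0.557% of all genes fell, the number that fell was 1, ALPK2, and the number that rose was 1, HCN4.

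Among thin filament genes, TNNC2, which encodes the fast skeletal form of the calcium-binding troponin subunit, was far more abundant than the other 2 troponin genes. In the authors' deposited FPKM table it stood at 92.2 in the RCAS(A) group, against 3.49 for TNNI1. It went from 37.8, 46.8 and 35.2 CPM in RCAS(A) replicates 2, 3 and 4 to 26.1, 29.8 and 26.6 CPM in RCAS(A)-Wnt9a replicates 1, 2 and 3, with a fitted log2 difference of -0.54 (SE 0.11, edgeR adjusted p = 0.0167). That call was lost without RCAS(A) replicate 3 and without RCAS(A)-Wnt9a replicate 3, with a highest edgeR adjusted p of 0.0645. LMOD1, a leiomodin that nucleates actin and is best known in smooth muscle, was 1.6-fold lower (log2 scale -0.68, SE 0.18, edgeR adjusted p = 0.0793). In RCAS(A) replicate 3 it was the lowest of the controls, at 5.72 CPM against 7.21 and 7.65.

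MYL1, the thick filament gene for a skeletal myosin light chain, had a profile almost equal to that of TNNI1. Its level was 2.89, 6.64 and 3.16 CPM in RCAS(A) replicates 2, 3 and 4 and 1.85, 2.05 and 1.70 CPM in RCAS(A)-Wnt9a replicates 1, 2 and 3. The groups did not overlap, and its log2 fold change was -1.18 (SE 0.31, edgeR adjusted p = 0.0931). In DESeq2 it passed the threshold.

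SMYD1, CASQ2 and MYOZ2 had few counts. SMYD1, a methyltransferase gene known from zebrafish and mouse for its need in sarcomere assembly and heart formation, had 12, 18 and 10 counts in RCAS(A) replicates 2, 3 and 4 and 1, 3 and 1 in RCAS(A)-Wnt9a replicates 1, 2 and 3 (log2 fold change -2.87, SE 0.57, edgeR adjusted p = 0.0154). The call of SMYD1 was lost without RCAS(A) replicate 3 or RCAS(A)-Wnt9a replicate 1, where the edgeR adjusted p reached 0.0808. CASQ2, the cardiac form of the calcium-binding protein calsequestrin, had 17, 36 and 13 counts against 4, 7 and 4 (log2 fold change -2.07, SE 0.48, edgeR adjusted p = 0.0410). Its call was lost without any single library except RCAS(A) replicate 4, with a highest adjusted p of 0.186. MYOZ2, a Z-disc protein gene, had too few counts to be tested, with 9, 20 and 9 in the controls and 2, 2 and 4 in the treated pools. For SMYD1, CASQ2 and MYOZ2 the highest library was again RCAS(A) replicate 3.

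MYOD1, a transcription factor gene that drives skeletal muscle fate, was the single skeletal regulator with a symbol here, of 20 on its list. It had 15, 15 and 11 counts in RCAS(A) replicates 2, 3 and 4, 5 and 6 in RCAS(A)-Wnt9a replicates 1 and 2, and 0 in replicate 3, which allows a level of up to 0.159 CPM in that library. Its log2 fold change was -1.83 (SE 0.56, edgeR adjusted p = 0.133). At 0.687 CPM in RCAS(A) replicate 3 against 0.647 and 0.543 CPM in the others, MYOD1 was not set apart in that pool as ACTC1 was. ALPK2, a kinase gene known from heart development in zebrafish, also had even controls, at 12.3, 13.4 and 13.2 CPM, and fell to 3.02, 5.65 and 6.10 CPM (log2 fold change -1.40, SE 0.21, edgeR adjusted p = 0.00398). None of the 14 cardiac regulators on the list had a symbol here, and they were not analysed.

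Genes of these lists that rose are also used outside striated muscle, as is LMOD1, which was lower in the treated pools. Whether the other genes that were lower are confined to striated muscle was not examined. Which cells the transcripts came from was not tested, for genes that rose or for genes that fell. HCN4, a pacemaker channel gene of heart and neurons, rose by 1.78 on the log2 scale (SE 0.14, edgeR adjusted p = 1.49e-05). MYLK, the myosin light chain kinase gene of smooth muscle and non-muscle cells, rose by 0.33 (SE 0.07, edgeR adjusted p = 0.0173), a call lost without RCAS(A)-Wnt9a replicate 2 or any single control. PDLIM5, a gene for a cytoskeletal adaptor with PDZ and LIM domains, rose by 0.27 (SE 0.06, edgeR adjusted p = 0.0432), a call kept only without RCAS(A) replicate 2 among the 6 fits that left out 1 library. SYNM, an intermediate filament gene, had a log2 fold change of 0.31 (SE 0.08) and missed the threshold (edgeR adjusted p = 0.0797).

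RCAS(A) replicate 3 was the highest of the 3 controls in 9 of the 14 tested muscle list genes (64.3%) and in 38.2% of all genes tested. Its level over the mean of the other 2 controls ran from 0.770 for LMOD1 to 2.86 for ACTC1 among the 14. All 9 had negative log2 fold changes, a direction that a high control itself favours. Summed over TNNT2, TNNI1 and ACTC1, the levels were 7.99 to 21.4 CPM in the control pools and 2.98 to 5.57 CPM in the treated pools.

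**Figure D4:**
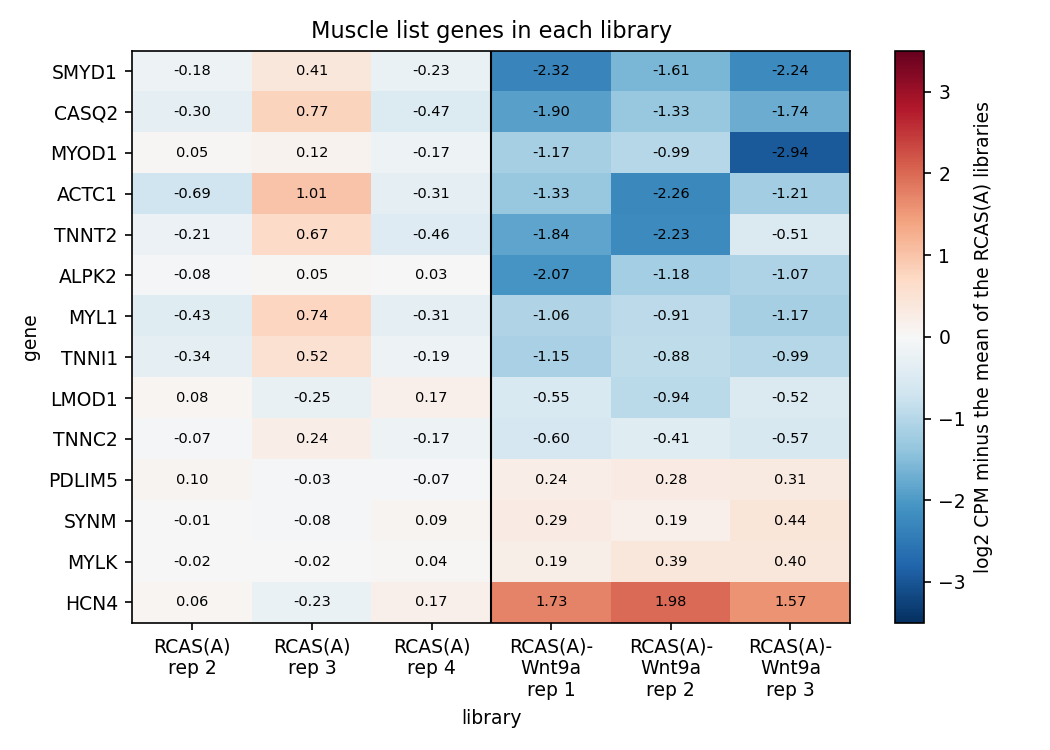
Each cell gives a gene's log2 CPM in a library minus its mean over the RCAS(A) libraries, for the 14 tested muscle list genes, ordered by fitted log2 fold change. The log2 CPM includes a prior count of 2, which makes differences at low counts smaller. RCAS(A) replicate 3 is above the other controls for ACTC1, MYL1, CASQ2, TNNT2, TNNI1 and SMYD1, and by less for TNNC2, MYOD1 and ALPK2. The lower rows hold HCN4, MYLK, SYNM and PDLIM5, which were higher in the treated pools.

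Likeness of profiles was measured as the root mean square distance between log2 CPM profiles over the 6 libraries, each centred on its own mean. The log2 CPM includes a prior count of 2, which makes differences at low counts smaller. Only genes with a symbol are named, which are genes of the authors' tables of changed genes. The 6 libraries span both groups, so the distance includes the difference between groups by which these genes were chosen. Nearness among them is therefore partly built in and describes them only. The profile of TNNI1 was nearest to MYL1, at a distance of 0.14, and no other of the 12133 genes tested was nearer. Next came CSRP2, a LIM domain protein gene (0.19), and HS3ST6, a heparan sulfate sulfotransferase gene (0.23). The nearest named gene to TNNT2 was ACTC1, at 0.43, with 1 unnamed gene nearer, followed by MEIOB, a meiosis gene (0.53), and GALR1L, a galanin receptor-like gene (0.55). ACTC1 was nearest among named genes to TNNT2 (0.43), MYL1 (0.51) and CASQ2 (0.53). TNNT2 and TNNI1 were further apart, at 0.61. Distance depends on how far a gene's levels vary: from TNNT2 13 of the tested genes were nearer than TNNI1, while from TNNI1, whose levels varied less, 7873 were nearer than TNNT2 and 3863 nearer than ACTC1.

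CSRP2 was at 120, 160 and 112 CPM in RCAS(A) replicates 2, 3 and 4 and at 73.0, 79.1 and 79.2 CPM in RCAS(A)-Wnt9a replicates 1, 2 and 3 (log2 fold change -0.76, SE 0.13, edgeR adjusted p = 0.0196). Its level in RCAS(A) replicate 3 was 1.38 times the mean of the other 2 controls. Its call was lost without RCAS(A)-Wnt9a replicate 2 or 3, with edgeR adjusted p of 0.0948 and 0.122, and kept without RCAS(A) replicate 3.

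TNNI1 and TNNT2 are neighbours on chromosome 26, with 11726 bases between their listed loci and 1 further gene, ENSGALG00000000309, between them. That gene had 40, 31 and 28 counts in the controls and 14, 42 and 23 in the treated pools, which overlap, and its fitted log2 difference was -0.28 (SE 0.34, edgeR adjusted p = 0.806). On the far side of TNNT2, ENSGALG00000000299 had a log2 fold change of 0.42 (SE 0.46), and on the far side of TNNI1, ENSGALG00000019802 had at most 2 counts in any library. The genes nearest to ACTC1, ENSGALG00000009838 and ENSGALG00000009845, had log2 fold changes of 0.09 (SE 0.06) and 0.07 (SE 0.43). Within 150 kb of the 2 troponin genes, 1 of 11 other tested genes was called and 2 had treated pools below all controls, against 2.27% and 9.16% of all genes tested. Within 150 kb of ACTC1 it was 0 of 5 for both (edgeR quasi-likelihood test), with log2 fold changes between -0.06 and 0.09.

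The 2 genes near the troponin pair with lower treated pools were named after their values were seen. ENSGALG00000000295, which has no symbol in the files, was at 41.8, 43.7 and 46.2 CPM in the controls and 6.75, 16.4 and 15.5 CPM in the treated pools (log2 fold change -1.77, SE 0.32, edgeR adjusted p = 0.0762). TMEM9, a membrane protein gene, fell by 0.68 on the log2 scale (SE 0.12, edgeR adjusted p = 0.00964), with an edgeR adjusted p of 0.0528 without RCAS(A) replicate 3. Their levels in RCAS(A) replicate 3 were 0.993 and 1.10 times the mean of the other 2 controls.

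**Figure D5:**
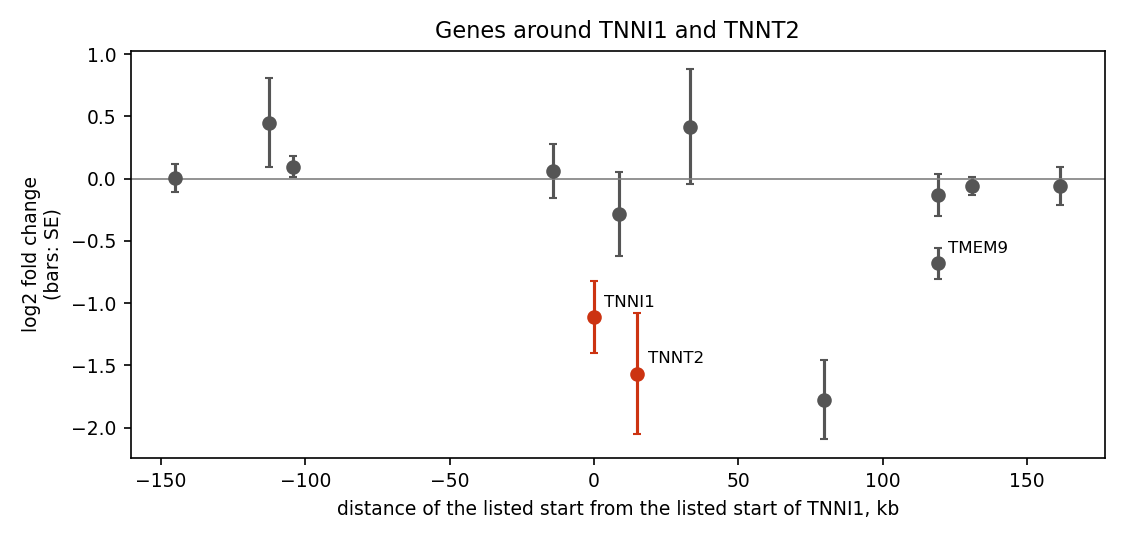
Log2 fold change (RCAS(A)-Wnt9a over RCAS(A), bars SE) of the tested genes listed within 150 kb of TNNI1 and TNNT2, against the distance of their listed start from that of TNNI1 in kb. TNNI1 and TNNT2 (red) lie below 0 at -1.11 and -1.57, with genes near 0 on both sides; the unlabelled low point is ENSGALG00000000295 at -1.77.

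Markers of other cell types also have symbols only through the authors' tables of changed genes, so movement between the groups was built into their choice. Over all genes tested 0.841% fell and 1.43% rose, shares that these markers cannot be read against. The part of these markers in the levels of the muscle genes was not tested. In the periotic mesenchyme and cartilage list 6 of 20 genes had a symbol, with a summed level of 815 to 868 CPM in the controls and 947 to 1114 CPM in the treated pools. COL1A2 and TBX18 make up most of these sums, and both missed the threshold (edgeR adjusted p = 0.114 and 0.0796). Of the 6, 2 rose (PRRX1 and HAPLN1), 1 fell and 3 missed the threshold. PRRX1, a mesenchymal transcription factor gene, rose by 0.99 on the log2 scale, with 13.5 ± 1.02 CPM in the controls and 26.8 ± 2.29 CPM in the treated pools (SD, n = 3 per group; edgeR adjusted p = 0.000199). LUM, which encodes the matrix proteoglycan lumican, fell by 0.52 (edgeR adjusted p = 0.0375), a call lost without any single library except RCAS(A)-Wnt9a replicate 1, with a highest adjusted p of 0.177. In the ganglion neuron list 2 of 13 had one, with sums of 225 to 261 and 165 to 179 CPM. Both fell: ISL1, a transcription factor gene that is also on the prosensory list, and NTRK2, which encodes a neurotrophin receptor, by 0.49 on the log2 scale (edgeR adjusted p = 0.00601). For the prosensory and supporting cell list it was 7 of 15, with sums of 729 to 773 and 454 to 584 CPM, of which OTOA makes up much. Of these 7, 4 fell, 1 rose and 2 missed the threshold, OTOA among the latter (edgeR adjusted p = 0.0658). On the log2 scale TECTB changed by -4.14, HES5 by -0.78, SOX2 by -0.49 and ISL1 by -0.51. Their edgeR adjusted p was 0.0232, 0.0381, 0.0122 and 0.00300. With 1 library left out the highest edgeR adjusted p was 0.110, 0.167, 0.0630 and 0.0262. The one that rose was PAX2, an otic transcription factor gene, by 0.34 on the log2 scale (edgeR adjusted p = 0.0439), a call kept only without RCAS(A)-Wnt9a replicate 3 among the fits that left out 1 library. In the hair cell list 3 of 14 had a symbol, with sums of 83.0 to 85.6 and 60.2 to 71.2 CPM, where 2 fell and 1 missed the threshold. ATP2B2 fell by 0.45 on the log2 scale (edgeR adjusted p = 0.0101) and CIB2 by 0.60 (edgeR adjusted p = 0.0396). With 1 library left out their highest edgeR adjusted p was 0.0794 and 0.150. PCDH15, the protocadherin gene of hair bundle links, missed the threshold (0.54 on the log2 scale, edgeR adjusted p = 0.0702). The glia (CDH19, 1 of 8), endothelium (FLT1, 1 of 8), blood (TFRC, 1 of 13) and cell cycle (KIF11, 1 of 12) lists rest on 1 gene each. For each of these genes every treated pool was above every control, as in 1192 of the 12133 genes tested. KIF11 missed the threshold (edgeR adjusted p = 0.124). None of the named markers in these lists was at 0 in any library. RCAS(A) replicate 3 was the highest control for 8 of the 21 tested genes of these lists, with ratios of 0.780 to 1.29 to the mean of the other 2.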

How the data were processed

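The authors deposited raw counts for each Ensembl gene and library, a table of pooled FPKM per group with confidence bounds, and tables of their own comparison: log2 fold changes and p-values from edgeR and DESeq2, the latter also with a mean normalized signal and a Wald score, per the file headers. The submitters' processing notes name galGal4 as the build, and TopHat2, edgeR, DESeq and DESeq2 as tools. No counting tool or strand setting is named, so overlapping genes may share reads. A stranded kit was used, per the labels' protocols. Nothing says that pools came from separate virus preparations, so p-values measure the spread between these pools.

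Here, 12133 of 15955 genes passed filterByExpr and were fitted with edgeR 4.0.16 in R 4.3.3 (TMM scaling, glmQLFit with robust estimation, glmQLFTest, two-sided, Benjamini-Hochberg adjustment), with all 6 libraries and no covariate. SE is the log2 fold change divided by the square root of F. An exact permutation test of 1 gene with 3 against 3 libraries cannot go below 0.1 and was not used. The fit was tested on counts simulated with the BCV of the trend. ACTC1 and TNNT2 have a larger BCV than the trend, so that test does not cover genes with their spread. Alternatives were DESeq2 1.42.0, limma-voom (limma 3.58.1), other scalings and filters, no robust estimation, a replicate block and leaving out each library; edgeR's exact test was added after the data were seen. Symbols came from the authors' tables (493 of 522 genes), matched to RefSeq symbols of GRCg7b, 144 by accession and 328 by symbol, with 21 kept as the authors wrote them. The 3 genes and the gene lists were chosen with earlier results of these data known. Named genes are the 3, WNT9A, muscle list genes with a symbol (up to 6 a list by smallest p), the 3 nearest profiles of each, the genes beside each locus and cell type markers. Loci are as listed in the FPKM table. Sequences of these genes were not used here. Python 3.11.15, pandas 2.3.3, scipy 1.17.1 and matplotlib 3.10.9 made the tables and figures.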

Additional observations from a re-analysis of the deposited data

How the results depend on the processing

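All 3 genes kept a negative log2 fold change in every alternative that tested them; their pools did not overlap between groups, so the sign was close to fixed. TNNT2 and TNNI1 were not tested under the filter that asks 3 libraries to reach a CPM of 2. Without robust estimation the adjusted p of edgeR's quasi-likelihood test was 0.0879 for TNNI1, 0.132 for TNNT2 and 0.0561 for ACTC1. The order of the 3 genes by adjusted p thus depended on that setting. With 1 library left out the log2 fold change ranged from -2.32 to -1.13 for TNNT2, -1.28 to -0.79 for TNNI1 and -2.08 to -1.07 for ACTC1. With edgeR's exact test, added after the data were seen, TNNT2 (-1.54), TNNI1 (-1.11) and ACTC1 (-1.76) passed the threshold. The replicate block fit, of replicates 2 and 3 of each group, gave -1.60 for TNNT2 and -1.99 for ACTC1, both past it, and called 506 genes in all. With so few libraries that fit has little information on the spread of a single gene, so its calls rest largely on spread estimated from other genes. The replicate numbers are shared only by title, and deviations of same-numbered pools correlated at -0.01 and 0.19, so these pairs cannot decide on pairing. The 276 changed genes became 439 with DESeq2, 503 with the exact test and 146 to 294 with 1 library left out, lowest without RCAS(A) replicates 4 and 2. The muscle list genes that fell (4) numbered 2 with the CPM filter, which left CASQ2 and SMYD1 untested. They numbered 8 with the block and 10 with the exact test, where 1.70% of all genes fell in each against 0.841%. With 1 library left out 1 to 4 fell, and those that rose (3) numbered 1 to 2. These genes have symbols only through the authors' tables of changed genes, so their numbers cannot be read against those shares. The causes were not tested. Counts of 8 to 71 for the troponin genes limit their precision.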

Other observations

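MLIP (ENSGALG00000016301), a gene for a muscle-enriched protein that binds lamins, was chosen after its values were seen and had too few counts to be tested. It had 10, 20 and 8 counts in RCAS(A) replicates 2, 3 and 4 and 0 in each RCAS(A)-Wnt9a library. A count of 0 allows up to 3 counts. Its level in RCAS(A) replicate 3 was 2.22 times the mean of the other 2 controls, and for MYOZ2, also not tested, this ratio was 2.20.

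In the treated pools, WNT9A was at 1340, 539 and 427 CPM in replicates 1, 2 and 3. None of TNNT2, TNNI1 and ACTC1 was ordered across these 3 pools as WNT9A was, or in reverse. With 3 pools no relation was tested.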
